A study of Mus musculus with 6 samples.

Results

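The 10 genes described here are 4 ligands (Dll1, Dll4, Jag1, Jag2), 4 receptors (Notch1, Notch2, Notch3, Notch4) and 2 target genes (Hey1, Hes1) of the Notch pathway. They were taken by gene symbol from a table of 18422 genes, in which all 10 were found, and all 10 were counted deeply enough to be tested. RNA sequencing was run on poly(A) RNA from mouse ear skin at postnatal day 21, in 3 control and 3 ecko libraries. The ecko mice carried an endothelial knockout of Vegfr2 (Kdr), the gene of the main VEGF-A receptor of endothelium, and the controls were littermates labelled only as control. Mice of both groups had received tamoxifen, which induced the deletion. The Cre driver, the floxed alleles, the alleles of the controls and the tamoxifen schedule of these mice are not given in the sources used here. The labels name no individual animals, so p-values measure the spread between these libraries.

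Notch receptors sit in the membrane of one cell and are activated by a ligand of the Delta-like or Jagged type on a neighbouring cell. Binding leads to cleavage of the receptor, and the freed intracellular part joins the DNA-binding protein RBPJ in the nucleus and switches on genes of the Hes and Hey repressor families. In growing vessels VEGF-A acting through VEGFR2 raises Dll4 in tip cells, and Dll4 activates Notch in the cells beside them and restrains sprouting. Notch4 and Hey1 are typical of endothelium, above all of arteries, Notch3 is typical of pericytes and smooth muscle, and Notch1, Notch2, Jag1, Jag2, Dll1 and Hes1 are also used by epidermis and hair follicles.

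The libraries held 17255419 to 18054700 counts each, and 14866 genes were tested. Kdr was at 8.59% of its control mean in ecko skin (30.1 ± 3.27 against 2.59 ± 0.688 CPM, SD, n = 3 each), so the labels matched the targeted gene. The third library of each group came from a female pup by its Y-linked reads (24 and 36, against 3712 to 4390 in the other libraries), so sex was balanced between the groups. Endothelial markers were lower as a set, with 18 of 18 log2 fold changes below 0 and 11 passing the test. Their summed level was 623 to 674 CPM in controls and 422 to 436 CPM in ecko skin, and none had a level of 0. In whole skin, fewer endothelial cells and less RNA of a gene per endothelial cell cannot be told apart.

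Dll4 and Notch4 fell together in ecko skin, as described below. The 250 bases before an annotated transcription start of each are shown because both genes share this direction. Hey1 fell too, but no window was used for it. The sequences are from RefSeq (GRCm38.p6), at chr2:119325534-119325783 on the plus strand for Dll4 and chr17:34564045-34564294 on the plus strand for Notch4. The Notch4 window runs past the gene start of 34564286 given below, so its last bases lie within the gene as placed there. Capitals mark GGAA on either strand (TTCC where it lies on the other strand), the core of sites for ETS factors, a family that includes regulators of endothelial genes.
Dll4: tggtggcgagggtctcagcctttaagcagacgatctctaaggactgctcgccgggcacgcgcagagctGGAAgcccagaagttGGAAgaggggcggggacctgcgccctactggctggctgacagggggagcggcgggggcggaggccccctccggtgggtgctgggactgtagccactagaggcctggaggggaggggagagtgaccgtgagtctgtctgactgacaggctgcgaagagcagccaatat
Notch4: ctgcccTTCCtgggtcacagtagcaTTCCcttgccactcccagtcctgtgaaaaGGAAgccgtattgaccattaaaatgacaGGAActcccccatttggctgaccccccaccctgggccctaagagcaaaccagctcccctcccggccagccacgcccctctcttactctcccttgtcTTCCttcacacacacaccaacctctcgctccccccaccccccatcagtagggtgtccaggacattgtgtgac

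The Dll4 window held 2 such matches and the Notch4 window 5, where the median of 32526 mouse promoter windows of the same length was 3 (quartiles 2 and 4) and 93.4% held at least 1. Windows of other genes of the 10 held 4 matches for Notch1, 3 each for Jag1 and Notch2, 1 in each Dll1 window and 0 for Jag2 and Notch3. Longer motifs were searched on both strands as well. The RBPJ motif TGGGAA, which ends in GGAA, was held by 21.6% of all windows. The longer ETS motif CCGGAA, which also ends in GGAA, was held by 12.1%. The SOX motif AACAAT was held by 9.35%, and the E-box CACGTG, a site type of bHLH factors, by 6.04%. None of the 9 windows found for 8 of the 10 genes held any of these 4. Windows for Hey1 and Hes1 were not used here. A match or its absence describes these letters only. The Dll4 window was 65.6% G and C and the Notch4 window 58.4%, against a median of 52.4%. The windows of the other genes were also above that median, from 56.0% in a Dll1 window to 87.2% for Jag2.

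Of the 10 Notch genes 3 fell in ecko skin, 1 from each role, and none rose. They were the ligand gene Dll4, the receptor gene Notch4 and the target gene Hey1. Over all genes tested 1.08% fell and 0.686% rose (threshold of 0.05 on the Benjamini-Hochberg adjusted p of edgeR). The median log2 fold change of the 10 was -0.10, beside 0.00 (-0.0018) for all genes tested. Control and ecko values did not overlap for 4 of the 10, all lower in ecko, which held for 10.8% of all genes tested in that direction and for 10.2% in the other. Those 4 were the 3 that passed and Notch3.

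**Figure D1:**
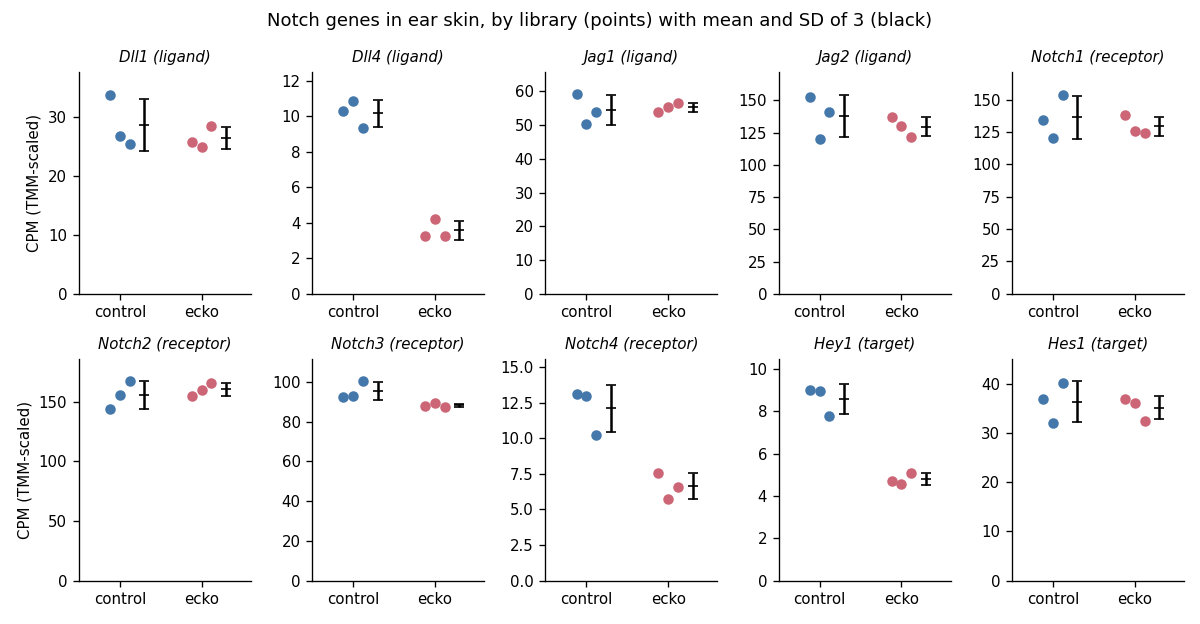
Level of each of the 10 genes in CPM (vertical axes, each from 0) in the 3 control and 3 ecko libraries (points), with the group mean and SD in black. The ecko points of Dll4, Notch4, Hey1 and Notch3 lie below all control points, and Notch3 by a narrow margin, while those of the other 6 genes overlap.

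Dll4 encodes the Delta-like ligand of endothelial cells (Entrez 54485, on chromosome 2 from 119325784 to 119335666, GRCm38.p6). Counts were 178, 191 and 165 for controls 1 to 3, against 56, 76 and 58 for the ecko libraries. Scaled to library size these were 10.3, 10.9 and 9.36 CPM against 3.24, 4.21 and 3.24 CPM. The highest ecko value lay below the lowest control value, by a gap wider than the range within either group. The group means were 10.2 ± 0.763 and 3.56 ± 0.555 CPM (SD, n = 3 each), which left 35.1% of the control level. The log2 fold change was -1.51 (SE 0.14, 95% interval -1.82 to -1.20, edgeR quasi-likelihood adjusted p = 0.00113). That change was the 15th lowest of the 14866 genes tested. Dll4 passed in each of 16 alternative settings, with log2 fold changes from -1.65 to -1.45. A transcript on the opposite strand, Gm14207, overlaps its exons, and its reads would not be separable without strand. The same holds for transcripts opposite Dll1, Notch1 and Notch3.

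Notch4 encodes a receptor found mainly on endothelium (Entrez 18132, on chromosome 17 from 34564286 to 34588543). It had 227, 228 and 180 counts in controls and 130, 103 and 118 in ecko libraries, or 13.1, 13.0 and 10.2 CPM against 7.53, 5.70 and 6.60 CPM. Control 3 was the lowest control and still lay above all ecko libraries. The mean went from 12.1 ± 1.64 to 6.61 ± 0.916 CPM (SD, n = 3 each), or 54.6% of control, with a log2 fold change of -0.87 (SE 0.14, 95% interval -1.19 to -0.56, edgeR adjusted p = 0.0182). This call depended on single libraries. The edgeR adjusted p was 0.0521 without control 1, 0.0639 without control 2, 0.0900 without ecko 2 and 0.0719 without ecko 3, at log2 fold changes of -0.81, -0.82, -0.78 and -0.87.

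Hey1 encodes a transcriptional repressor switched on by Notch (Entrez 15213, on chromosome 3 from 8663359 to 8667038). Control libraries held 156, 157 and 137 counts of it, and ecko libraries 81, 82 and 91. The levels were 9.01, 8.94 and 7.77 CPM against 4.69, 4.54 and 5.09 CPM, with a clear gap between the groups and a smaller spread in ecko. The mean fell from 8.57 ± 0.695 to 4.77 ± 0.284 CPM (SD, n = 3 each), or 55.7% of control, a log2 fold change of -0.84 (SE 0.12, 95% interval -1.11 to -0.57, edgeR adjusted p = 0.00968). Without ecko 1 the edgeR adjusted p was 0.0544 and without ecko 2 it was 0.0682, at -0.83 and -0.81. In the male libraries alone, a setting added after the data were seen, the edgeR log2 fold changes were -1.50 for Dll4, -0.98 for Notch4 and -0.96 for Hey1, and all 3 passed.

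The other 3 ligand genes did not pass. Jag1, a Jagged ligand of endothelium, smooth muscle and epidermis, stood at 59.2, 50.4 and 53.9 CPM in controls, against 54.0, 55.3 and 56.6 CPM in ecko libraries. All ecko values lay inside the control range, and the log2 fold change was 0.02 (95% interval -0.14 to 0.18, edgeR adjusted p = 0.923). Jag2, the Jagged ligand of epidermis and hair follicle, stood at 153, 120 and 141 CPM in controls, against 137, 130 and 122 CPM in ecko (-0.09, 95% interval -0.28 to 0.11, edgeR adjusted p = 0.707). Levels of Dll1, a Delta-like ligand also made by epidermal stem cells, were 33.7, 26.7 and 25.5 CPM for controls, against 25.8, 24.8 and 28.5 CPM for ecko skin. Control 1 stood above the other 5 Dll1 values, and the log2 fold change of -0.12 (95% interval -0.37 to 0.13, edgeR adjusted p = 0.685) became 0.02 without it.

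Of the 4 receptor genes Notch4 alone passed. Notch1, the receptor shared by endothelium, epidermis and lymphocytes, stood at 135, 121 and 154 CPM in controls, against 138, 126 and 124 CPM in ecko (-0.08, 95% interval -0.27 to 0.12, edgeR adjusted p = 0.751). Notch2, also widely expressed, stood at 144, 155 and 168 CPM in controls, against 155, 160 and 166 CPM in ecko (0.04, 95% interval -0.11 to 0.19, edgeR adjusted p = 0.822). For both genes all ecko values lay inside the range of the controls.

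Notch3, the receptor of pericytes and smooth muscle, stood at 92.6, 93.1 and 101 CPM in controls, against 87.9, 89.1 and 87.3 CPM in ecko. All ecko values were below all control values, by a small step. The log2 fold change was -0.12 (SE 0.06, 95% interval -0.24 to 0.01, edgeR adjusted p = 0.374), and it did not pass in any of the 16 alternative settings (-0.13 to -0.07). The summed level of 10 mural cell markers, which left out Notch3, was 969 to 1084 CPM in controls and 769 to 814 CPM in ecko. Des was the largest part of this sum, at 351 ± 45.0 CPM in controls and 267 ± 19.2 CPM in ecko (SD, n = 3 each). All 10 mural markers had log2 fold changes below 0 (from -0.82 to -0.03, median -0.37), 3 of them passed, and none had a level of 0. Their part in the Notch3 values was not tested.

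Hes1, a target gene of Notch that other pathways also induce, stood at 36.9, 31.9 and 40.1 CPM in controls, against 36.8, 36.1 and 32.5 CPM in ecko. The groups overlapped fully, unlike those of Hey1, and the log2 fold change was -0.05 (95% interval -0.25 to 0.16, edgeR adjusted p = 0.858). Across the 7 genes that did not pass, the 95% intervals reached no lower than -0.37 and no higher than 0.19.

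**Figure D2:**
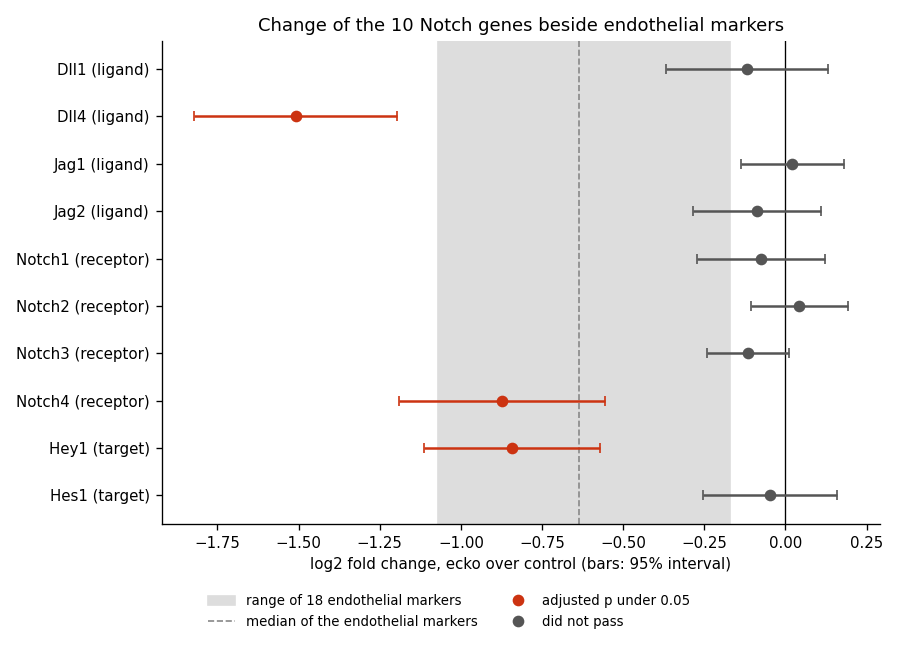
Log2 fold change of ecko over control (horizontal axis) with its 95% interval for each of the 10 genes, beside the range (grey band) and median (dashed line) of the 18 endothelial markers. Dll4 at -1.51 lies below the band, Notch4 and Hey1 lie inside it, and the 7 genes in grey lie between -0.12 and 0.04.

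The 3 genes that fell were set beside the 18 endothelial markers, whose log2 fold changes ran from -1.07 to -0.17 around a median of -0.64. Dll4 at -1.51 was below the lowest marker, Tie1. Notch4 and Hey1 were within the range, close to the junction gene Cdh5 (-0.93). A second measure was the log2 level of each gene minus the mean log2 level of the markers in the same library. For Dll4 it was -1.47, -1.35 and -1.50 in controls and -2.45, -2.04 and -2.46 in ecko, a further fall of 0.88 beyond the markers. The groups did not overlap, and the exact permutation test (two-sided, 3 against 3) gave p = 0.1, the smallest it allows, and 0.111 after adjustment over the 10 genes.

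Relative to the markers Hey1 differed by -0.21 (-1.66, -1.64 and -1.77 in controls, -1.93, -1.93 and -1.82 in ecko, exact permutation p = 0.1, adjusted p = 0.111). Its groups were separate by a small gap. Notch4 differed by -0.24 (-1.12, -1.10 and -1.38 in controls, -1.25, -1.61 and -1.45 in ecko, exact permutation p = 0.2). Its groups overlapped, since control 3 lay below ecko 1. The other 7 genes were higher relative to the markers by 0.51 to 0.67, without overlap between groups (exact permutation p = 0.1, adjusted p = 0.111 for each). The marker mean itself changed by -0.63, and the 7 genes had log2 fold changes between -0.12 and 0.04. Their rise relative to the markers therefore follows from the subtraction, and these p-values do not test the 7 genes themselves. With Pecam1 and Cdh5 alone as the reference, the differences were -0.78 for Dll4, -0.14 for Notch4 and -0.11 for Hey1. With the 7 markers that did not pass they were -1.13, -0.49 and -0.46, but that reference leaves out the markers that fell most, so larger differences follow from its construction.

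**Figure D3:**
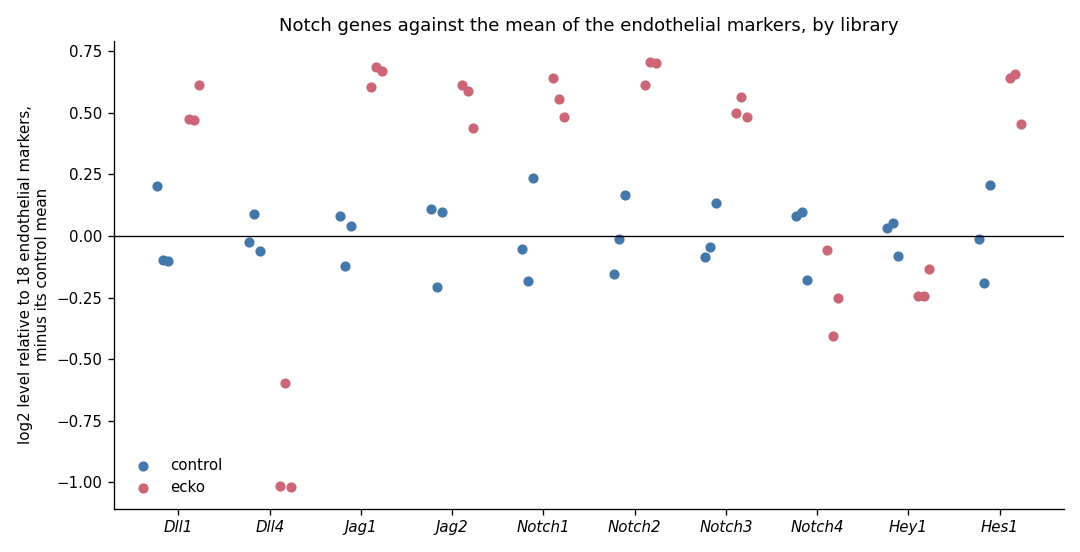
Log2 level of each gene relative to the mean of the 18 endothelial markers in the same library, with the control mean of each gene set to 0 (vertical axis), in control (blue) and ecko (red) libraries. Dll4 lies lower in ecko, Notch4 overlaps, Hey1 is slightly lower, and the other 7 genes lie 0.51 to 0.67 higher on average.

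Among 8 arterial genes that stand outside the Notch lists used here, 1 fell, with a median of -0.43. Over all genes tested 1.08% fell. Whether Notch acts on these 8 genes was not tested. The gap junction gene Gja4 fell by 1.10 (SE 0.13). The others ran from -0.89 for Sox17 (edgeR adjusted p = 0.0528) through Gja5, Bmx, Nrp1 (-0.11) and Unc5b (-0.02) to Efnb2 (0.07) and Cxcr4 (0.18), and the groups of those last 4 overlapped. Their summed level was 286 to 305 CPM in controls and 270 to 294 CPM in ecko. The lymphatic markers were at 308 to 383 CPM in controls and 227 to 246 CPM in ecko. Basal keratinocyte markers were at 9895 to 11267 CPM in controls and overlapped with ecko, at 10360 to 10913 CPM. Suprabasal markers were higher in sum without overlap, at 20639 to 22881 and 23300 to 26018 CPM. Only Krt1 of these 7 genes rose (0.76, SE 0.15, edgeR adjusted p = 0.0376), and the other 6 did not pass. Lor alone lay below 0 (-0.19, edgeR adjusted p = 0.523), with overlapping groups. Adipocyte markers were lower in sum, at 368 to 449 and 225 to 296 CPM, with 3 of 6 genes passing. Of these 6 genes Lep alone lay higher (0.88, edgeR adjusted p = 0.231), with overlapping groups. Muscle markers were lower in sum as well, at 4207 to 6370 and 3476 to 3979 CPM, with 2 of 6 passing. Melanocyte markers (119 to 130 and 137 to 179 CPM) and leukocyte markers (1014 to 1262 and 1271 to 1351 CPM) were higher without overlap, and no gene of either list passed. The part of these cell types in the Notch values was not tested.

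Jag1 and Dll4 act on the same receptors, and in sprouting endothelium Jag1 counteracts Dll4. Counts of Jag1 over Dll4 (1 added to each) stood at 5.74, 4.61 and 5.73 in controls, and at 16.4, 13.0 and 17.2 in ecko libraries. All ecko ratios were above all control ratios. The ratio was 2.89 times higher in ecko (a log2 difference of 1.53, SD 0.18 in controls and 0.22 in ecko, exact permutation p = 0.1, two-sided, the smallest that 3 against 3 allows). Jag1 itself did not pass, and the ratio is taken over all cells of the skin, not within endothelium. With log2 fold changes of 0.02 for Jag1 and -1.51 for Dll4, the ratio restates the fall of Dll4 and is not a separate result.

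Levels were compared between genes per kilobase of exon sequence. In control skin Jag2 was at 19.8 ± 2.38 and Hes1 at 17.8 ± 2.03 CPM per kb (SD, n = 3), and these 2 overlapped. Notch2 followed at 14.4 ± 1.10, Notch3 at 11.8 ± 0.553, Notch1 at 9.58 ± 1.17 and Jag1 at 9.35 ± 0.766 CPM per kb, of which Notch1 and Jag1 overlapped. Dll1 was at 6.78 ± 1.04 CPM per kb. The 3 genes that fell had the lowest levels of the 10 per kilobase, with Dll4 at 2.64 ± 0.198, Hey1 at 2.62 ± 0.213 and Notch4 at 1.50 ± 0.203 CPM per kb. Dll4 and Hey1 overlapped in controls, and in ecko Dll4 (0.925 ± 0.144) was below Hey1 (1.46 ± 0.0869 CPM per kb). With the longest transcript as length, Notch1 came before Notch3 and Hey1 before Dll4 in controls.

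Of the summed CPM per kb of the 4 ligand genes, Dll4 made up 6.25%, 8.06% and 6.40% in controls and 2.35%, 3.10% and 2.42% in ecko libraries. Notch4 made up 4.53%, 4.47% and 3.16% of the 4 receptor genes in controls and 2.60%, 1.99% and 2.29% in ecko. Neither share overlapped between the groups (exact permutation p = 0.1 each, adjusted p = 0.2 over 8 shares). The shares of Jag1 (mean 24.3% in controls and 26.9% in ecko) and Notch2 were higher in ecko, also without overlap and with the same p-values. The shares of a family add up to a fixed whole, so these rises and falls are not independent results. Jag2 held the largest ligand share, at 51.3 ± 2.10% and 52.8 ± 2.32%, and Notch2 the largest receptor share, at 38.7 ± 1.42% and 41.7 ± 1.47% (SD, n = 3 each). Notch1 has 14232 bases of exon sequence but 9488 in its longest transcript, so the receptor shares depend on the length chosen. Shares by the longest transcript were not computed. No share was computed for the target genes.

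**Figure D4:**
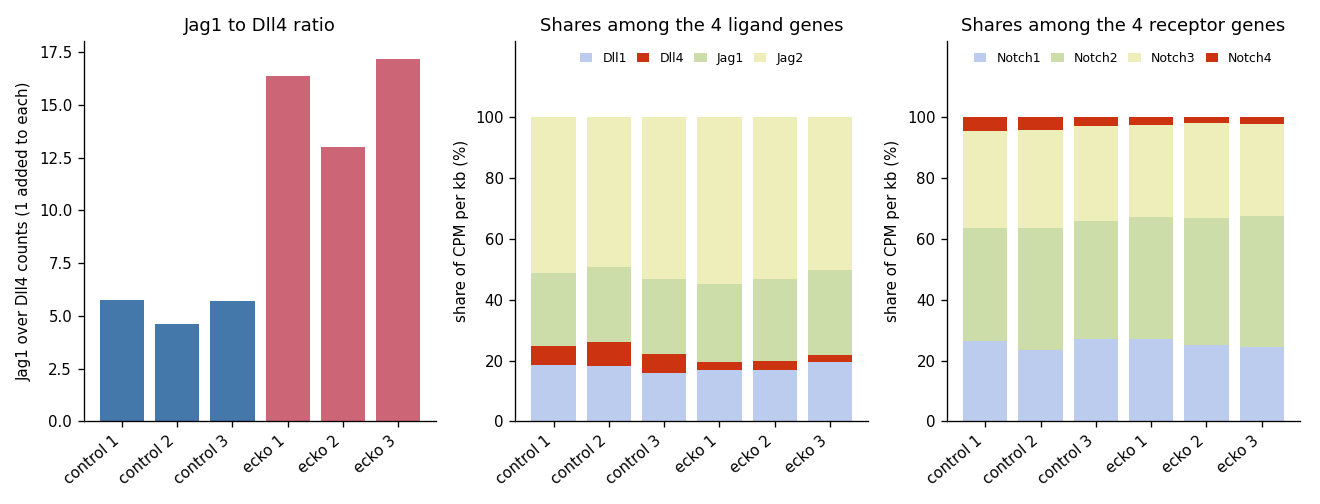
Ratio of Jag1 to Dll4 counts by library (left, bars from 0) and shares of the summed CPM per kb among the 4 ligand genes (middle) and the 4 receptor genes (right), with Dll4 and Notch4 in red. The ratio is 4.61 to 5.74 in controls and 13.0 to 17.2 in ecko, and both red shares are smaller in ecko libraries.

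The rest of the pathway was read from a list of 81 genes, of which 75 were tested. None rose and 1 fell, where 0.686% of all genes tested rose and 1.08% fell, so 1 fall among 75 is near that share. The median log2 fold change was 0.00 (0.0045). The gene that fell was Heyl, a Notch target of the Hey family typical of mural cells. It stood at 13.7 ± 0.325 CPM in controls, against 10.1 ± 0.508 CPM in ecko (SD, n = 3 each; -0.44, SE 0.09, edgeR adjusted p = 0.0461). The Heyl call was lost without any 1 of the 6 libraries, with limma-voom, DESeq2, a replicate block or a sex term, and in male libraries alone, with adjusted p between 0.0396 and 0.203 over all settings. The summed mural markers, of which Des was the largest part, were at 969 to 1084 CPM in controls and 769 to 814 CPM in ecko, with 3 of 10 passing. Their part in the Heyl values was not tested.

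The machinery that cuts, modifies and turns over the receptors did not pass for any gene. The 10 genes of receptor cleavage, which include the protease genes Adam10 and Adam17, lay between -0.10 and 0.10. Of the 9 genes that add sugars to the receptors, the fringe gene Mfng had the smallest p, at 7.87 ± 0.836 CPM in controls and 5.46 ± 0.811 CPM in ecko (SD, n = 3 each; -0.53, SE 0.14, edgeR adjusted p = 0.123). Its 2 groups did not overlap, nor did those of the fringe gene Lfng (-0.25, edgeR adjusted p = 0.178), while Rfng had -0.0023. In the same 9 genes the groups of Gxylt1 (0.20, edgeR adjusted p = 0.234), Xxylt1 (0.07) and Poglut1 (0.06) did not overlap in the other direction. That made 2 of the 9 lower and 3 higher, where 10.8% and 10.2% of all genes tested did so. Fringe enzymes tune how strongly receptors respond to Delta-like against Jagged ligands.

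None of the 6 genes of ligand endocytosis passed, and Mib1, the ubiquitin ligase gene that activates ligands, had the smallest p (0.17, edgeR adjusted p = 0.191). The 7 genes of the nuclear complex lay between -0.02 and 0.17, with Rbpj at 106 ± 12.6 CPM in controls and 119 ± 2.01 CPM in ecko (SD, n = 3 each; 0.17, edgeR adjusted p = 0.371). The coactivator gene Maml3 had the smallest p of that group (0.17, edgeR adjusted p = 0.316). Among 12 corepressor genes it was Tle2 (-0.37, edgeR adjusted p = 0.155), and among 13 genes of receptor inhibition and turnover it was Dtx1, a Deltex gene (-0.45, edgeR adjusted p = 0.156).

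Of the 5 other ligand-like genes tested, the secreted endothelial gene Egfl7 had the smallest p (-0.61, SE 0.14, edgeR adjusted p = 0.0659), and it also stands in the endothelial list. Egfl7 was called lower by DESeq2 (adjusted p = 0.00466) and without control 3 (edgeR adjusted p = 0.0392). Dner, a ligand-like gene known mainly from neurons, was low at 1.20 ± 0.254 and 0.598 ± 0.217 CPM (SD, n = 3 each; -0.99, edgeR adjusted p = 0.210). The other targets gave 1 fall, Heyl, among 13 tested, where 1.08% of all genes tested fell. Hey2, the arterial relative of Hey1, was low at 1.85 ± 0.190 and 1.58 ± 0.295 CPM (SD, n = 3 each; -0.22, edgeR adjusted p = 0.707). Nrarp, a feedback inhibitor induced by Notch, was at 69.1 ± 4.47 and 68.6 ± 4.55 CPM (-0.01, edgeR adjusted p = 0.967). Cd44 had 0.27 (edgeR adjusted p = 0.0575), and DESeq2 called it higher. Dll3, Hes2, Hes3, Hes5, Hes7 and Ptcra had too few counts to be tested.

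**Figure D5:**
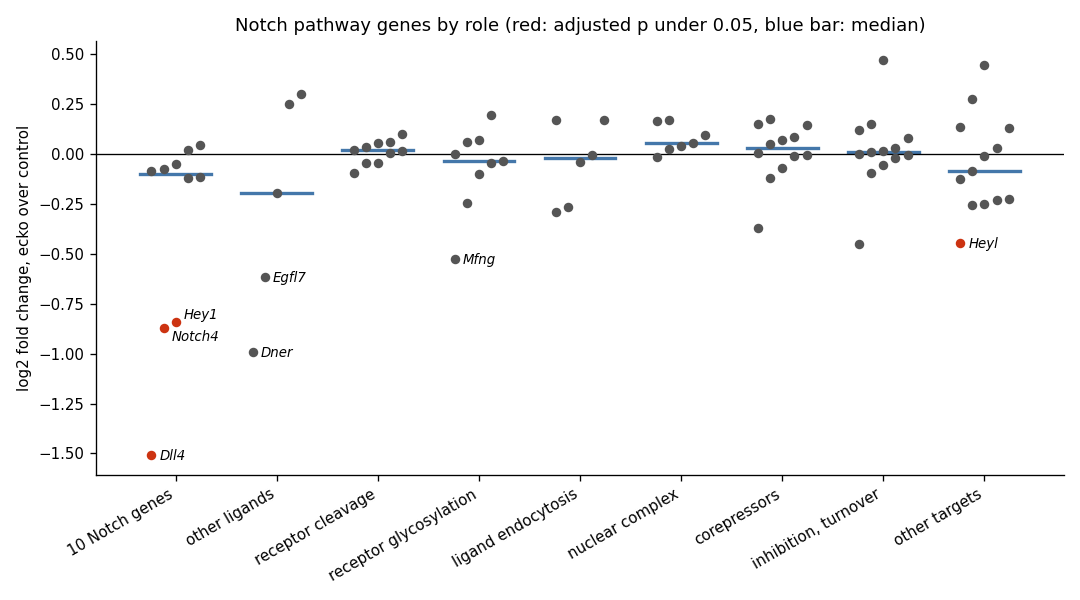
Log2 fold change (vertical axis) of the 10 Notch genes and of 75 other pathway genes in 8 roles, with red points for adjusted p under 0.05 and blue bars for the median of each role. Red points are Dll4, Notch4, Hey1 and Heyl, all below 0, and the medians of the roles lie between -0.19 and 0.06.

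Genes whose log2 CPM followed each of the 3 over the 6 libraries most closely were found among 13814 genes by Pearson's r. For Hey1 they were Adgrf5 (0.998), Cdh5 (0.995), Slc9a8 (0.995), Sox18 (0.993) and Etnk1 (0.991). For Dll4 they were Shpk (0.995), Thrsp (0.993), Epas1 (0.993), Npr1 (0.991) and Arap3 (0.990). For Notch4 they were Pgghg (0.992), Rasip1 (0.992), Usp21 (0.991), Ccdc85a (0.987) and Slc8a3 (0.987). These values are descriptions over 6 libraries that share the step between the groups, so any gene with a similar step and little spread scores high. The step of the 15 genes ran from -0.15 log2 units for Usp21 to -1.77 for Ccdc85a.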

How the data were processed

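The deposited table holds expected counts (RSEM-type estimated counts) per gene and library, not scaled by the authors, per the file headers; 10.5% of values were not whole. RSEM 1.3.1, Bowtie2 2.4.5, HISAT2 2.2.1 and the build GRCm38.p6 are listed without roles, per the submitters' processing notes. Neither annotation release nor strand setting is given in the sources used here. Values were rounded, filtered with filterByExpr (minimum count 10; 14866 of 18422 genes kept), scaled by TMM and tested with edgeR 4.0.16 (quasi-likelihood, genotype only, R 4.3.3, Benjamini-Hochberg threshold 0.05). A standard error is the log2 fold change divided by the square root of F. CPM used TMM-scaled totals, and log2 CPM a prior count of 1. Coordinates are RefSeq GRCm38.p6, and exon lengths GENCODE's annotation of GRCm38. Counts within groups differed by 5.11 to 15.6 times the sampling variance, so no library was a duplicate. The scripts were tested on simulated data.

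The members, lists and tests were chosen with earlier results of these data known. Named were Kdr, the 10 genes, pathway genes that passed or had the smallest p of their role, and the 5 most correlated genes of each member that passed. Dner, Rbpj, Lfng, Rfng, Hey2, Nrarp, Cd44, Krt1, Lor, Lep, Tie1, Des, the arterial genes and the 3 other glycosylation genes were named after their values were seen. A gene that this rule takes is not reported here. A library with at least 500 Y-linked reads was taken as male. Alternatives were DESeq2 1.42.0, limma-voom (limma 3.58.1), upper-quartile or RLE factors, no filter, 1 CPM in 3 libraries, a sex term, a replicate block, leaving out each library, a threshold of 0.1 and, added after seeing the data, male libraries alone. Dll4, Notch4 and Hey1 rest on 56 to 228 counts per library, so counting error limits their precision.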

Additional observations from a re-analysis of the deposited data

How the results depend on the processing

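Dll4, Notch4 and Hey1 passed with RLE and upper-quartile factors, DESeq2, limma-voom, no filter, 1 CPM in 3 libraries, the sex term, the threshold of 0.1 and male libraries alone. With each library left out, 1 to 3 of the 10 Notch genes fell (1, Dll4, without ecko 2) and none rose. Over all genes, leaving out a library gave 22 to 165 genes higher and 34 to 242 lower, against 102 and 160. DESeq2 called 195 higher, the threshold of 0.1 gave 182 higher and 269 lower, and male libraries alone gave 91 lower. Of the 75 other pathway genes, 0 to 2 fell with a library left out, 0 with limma-voom, the sex term or male libraries alone and 2 at the threshold of 0.1, and 1 (Cd44) rose with DESeq2 and at the threshold of 0.1.

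The replicate block gave 63 genes higher, 3 Notch genes lower and 0 other pathway genes lower. Same-numbered libraries deviated together at correlations of 0.054, 0.059 and 0.167, and each library correlated best with its own number. The highest value joined the third libraries, which were both female by their Y-linked reads. Whether the numbers mark pairs cannot be told from these values. For the Jag1 to Dll4 ratio the replicate block gives the same log2 difference of 1.53 by arithmetic, so it tests nothing there.

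Among genes that did not pass, signs turned with single libraries left out. The log2 fold changes ran from -0.20 to 0.018 for Dll1, -0.032 to 0.089 for Jag1, -0.16 to 0.020 for Notch1, -0.0070 to 0.099 for Notch2 and -0.13 to 0.030 for Hes1. In male libraries alone the sign also turned for Jag1 (-0.0040), Notch1 (0.049) and Hes1 (0.084). The cause was not tested.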
